A study of Rattus norvegicus with 56 samples.

Results

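The microRNAs of the miR-17-92 cluster and of the related miR-106b-25 cluster were followed over myocardium, amniotic fluid and maternal serum of rats at embryonic day 19. The members were chosen by name, as 6 mature microRNAs of miR-17-92 (miR-17-5p, miR-18a-5p, miR-19a-3p, miR-20a-5p, miR-19b-3p and miR-92a-3p) and 4 of miR-106b-25 (miR-106b-5p, miR-106b-3p, miR-93-5p and miR-25-3p). These 10 members stood among 682 microRNAs in the deposited count tables and were listed in all 3 tissues. The study used Sprague-Dawley rats, in which dams of the negative control (NC) group received distilled water and dams of the other arm received dimethadione (DMO), an agent that causes heart malformations in the fetus, by gavage. The VSD group held fetuses of DMO dams with a ventricular septal defect, and the non-VSD group held fetuses of DMO dams with an intact septum, so that both groups share the exposure. Every group had 7 samples, and all 3 groups were sampled for myocardium and amniotic fluid but only the NC and VSD groups for maternal serum. Myocardial RNA came from paraffin blocks of the fetal heart, and maternal serum came from the dams. The labels do not tie samples to dams or litters, so p-values measure only the spread between these samples. Of the myocardium libraries, replicate 2 of the NC group and replicates 1 and 4 of the VSD group stood apart by low muscle and high epithelial microRNAs, and replicate 3 of the VSD group by its depth, the lowest of the tissue.

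Both clusters are transcribed as single long RNAs from which several hairpins are cut, and the arms of each hairpin give mature microRNAs. A microRNA finds its targets mainly through its seed (bases 2 to 8), so that members with one seed share most predicted targets. The miR-17 seed family represses inhibitors of the cell cycle such as Cdkn1a, and the miR-92 family acts among others in endothelial cells and on calcium handling in heart muscle. The clusters are known for promoting cell division, and mice that lack miR-17-92 die at birth with small lungs and a ventricular septal defect.

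The mature sequences are shown because the seeds define the families that the balance measures compare. All 10 were matched by name to RefSeq (build GRCr8), the capitals mark the seed, and the members carry 5 seeds. The miR-17 seed family has 4 members, 2 from each cluster.
miR-17-5p: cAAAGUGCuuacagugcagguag
miR-20a-5p: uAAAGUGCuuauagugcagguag
miR-93-5p: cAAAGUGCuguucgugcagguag
miR-106b-5p: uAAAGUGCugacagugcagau
The miR-92 seed family has 1 member from each cluster.
miR-92a-3p: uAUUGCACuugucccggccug
miR-25-3p: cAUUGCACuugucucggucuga
The miR-19 seed family comes from miR-17-92 alone, and its members differ by 1 base.
miR-19a-3p: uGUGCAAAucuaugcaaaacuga
miR-19b-3p: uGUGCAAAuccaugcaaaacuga
Each of the last 2 members has a seed of its own.
miR-18a-5p: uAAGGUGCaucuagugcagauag
miR-106b-3p: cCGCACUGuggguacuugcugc

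In GRCr8 the 6 miR-17-92 members lie within 762 bases on the plus strand of chromosome 15 (chr15:98587861-98588622). The miR-106b-25 members lie within 472 bases on the minus strand of chromosome 12 (chr12:22156652-22157123), inside the span of Mcm7, which encodes a subunit of the replicative helicase. For 3 members, miR-17-5p, miR-19b-3p and miR-92a-3p, an identical mature sequence is also cut from the miR-106a-363 cluster on chromosome X, so their counts cannot be assigned to 1 locus. The mature members are 21 to 23 bases long, and levels are given per library without a correction for length. Pairs that differ by few bases, such as miR-17-5p and miR-20a-5p with 2 edits between them, depend on how the authors' counting split near-identical reads.

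Libraries held from 1694811 to 9371130 counts in myocardium, from 78188 to 331787 in amniotic fluid and from 147609 to 581350 in serum. In the smallest library of each tissue an undetected microRNA could still have a level of 1.77 CPM (counts scaled to a common library total) in myocardium, 38.4 CPM in amniotic fluid and 20.3 CPM in serum, for counting error only and at a limit of 3 counts. All 6 heart and skeletal muscle microRNAs on the marker list were detected in each group of myocardium, and their summed level in NC replicate 2 was 4079 CPM against a median of 37451 CPM. That library also held the highest summed level of 8 epithelial microRNAs in the NC group (14234 CPM, median 1366) and the lowest of 4 red blood cell microRNAs (2651 CPM, median 33788). VSD replicates 1 and 4 were alike, with summed muscle levels of 5426 and 7311 CPM (group median 20214) and epithelial levels of 15250 and 12120 CPM (group median 3265). VSD replicate 5 also had a high epithelial level (11596 CPM), but its muscle level was the group median. In amniotic fluid the epithelial list had the highest median of the 5 marker lists (114289 CPM in the NC group), and in serum the red blood cell list did (87488 CPM).

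miR-25-3p was the highest member in the NC group of all 3 tissues and ranked 29th of 661 microRNAs in myocardium, 22nd of 523 in amniotic fluid and 8th of 518 in serum. Levels are TMM-scaled CPM, with the scaling done within a tissue, so that a level in 1 tissue cannot be set exactly against that in another. The 10 members together took 1.98% ± 0.439 (SD, n = 7) of all counts in NC myocardium, 2.69% ± 0.457 in NC amniotic fluid and 5.19% ± 0.597 in NC serum.

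In NC myocardium the order was miR-25-3p (7121 ± 2993 CPM, SD, n = 7), miR-93-5p (4227 ± 1491), miR-20a-5p (3333 ± 1048), miR-92a-3p (2995 ± 956), miR-19b-3p (2003 ± 497), miR-17-5p (1691 ± 553), miR-106b-5p (932 ± 315), miR-106b-3p (898 ± 513), miR-18a-5p (270 ± 134) and miR-19a-3p (269 ± 115). The ranges over the 7 samples overlapped for every pair of neighbours in this order. Within each of the 7 libraries, however, miR-25-3p exceeded miR-93-5p, miR-17-5p exceeded miR-106b-5p and miR-106b-3p exceeded miR-18a-5p. The other steps did not hold in every library. In NC amniotic fluid miR-25-3p (13284 ± 1881 CPM) stood above miR-93-5p (6505 ± 1685), and miR-93-5p above miR-92a-3p (2460 ± 919), with no overlap at either step. The lowest member there was miR-106b-5p (19.9 ± 27.2 CPM), below miR-19a-3p (75.6 ± 57.9) and miR-18a-5p (136 ± 91.5), with ranges that overlapped. In NC serum miR-25-3p (24912 ± 7170 CPM), miR-92a-3p (14817 ± 3492) and miR-93-5p (10496 ± 2721) were the 3 highest members, and all 7 samples of miR-93-5p lay above those of the next member, miR-106b-3p (1309 ± 296). From miR-106b-3p down to miR-17-5p (333 ± 124) the ranges of neighbours overlapped. miR-17-5p did not overlap with miR-18a-5p (65.5 ± 23.6), and miR-106b-5p was again lowest (7.65 ± 5.80).

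**Figure D1:**
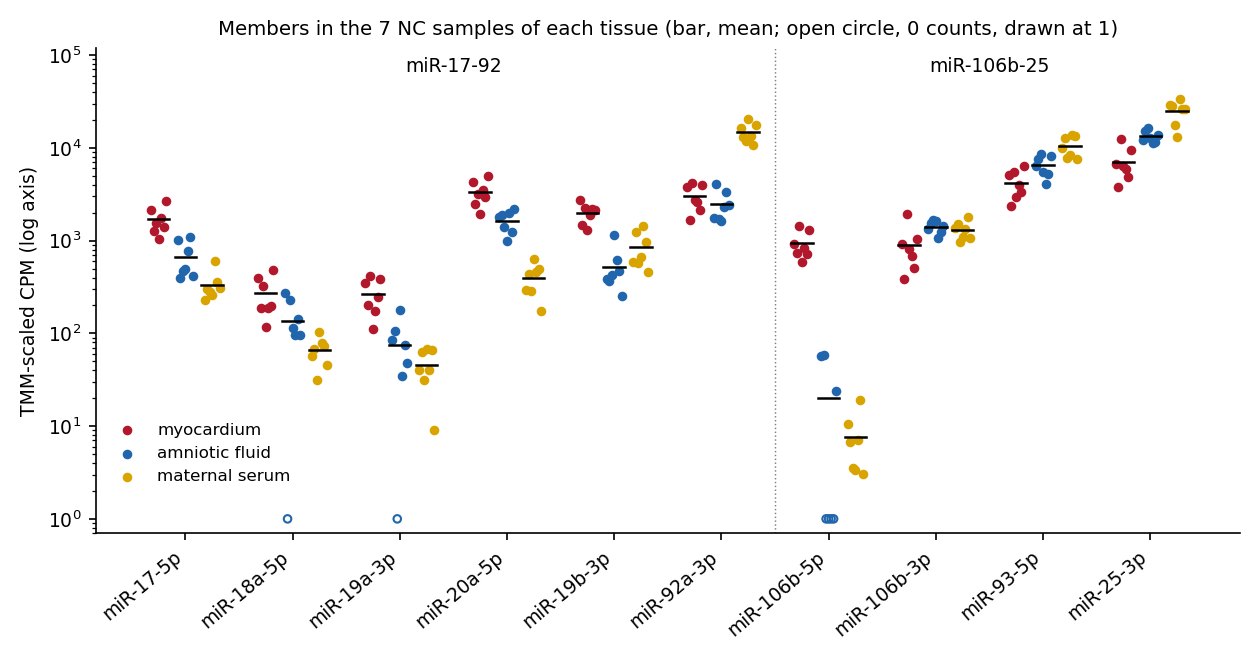
Level of each member in the 7 NC samples of each tissue, in TMM-scaled CPM on a log axis, with a bar at the mean and an open circle drawn at 1 for a library with a count of 0. miR-25-3p is the highest member in each tissue, and miR-106b-5p lies near 932 CPM in myocardium but at 19.9 CPM in amniotic fluid and 7.65 CPM in serum.

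The seed families held different shares of the members' counts in the 3 tissues. In NC myocardium the miR-17 family held 43.2% ± 5.24 (SD, n = 7) and the miR-92 family 42.2% ± 5.79, and in NC amniotic fluid these shares were 32.9% ± 3.28 and 58.9% ± 2.59. In NC serum the miR-17 family held 21.1% ± 3.71 and the miR-92 family 74.7% ± 4.53. The miR-19 family held 9.89% ± 2.16 in myocardium, 2.34% ± 1.51 in amniotic fluid and 1.66% ± 0.549 in serum. miR-18a-5p held 1.11% ± 0.310, 0.522% ± 0.342 and 0.124% ± 0.0517 in the same order, and miR-106b-3p held 3.63% ± 1.15, 5.32% ± 0.679 and 2.47% ± 0.439.

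As a measure of balance that needs no scaling between libraries, the log2 ratio of summed counts was taken within each library. Differences were tested by exact two-sided permutation over 3432 groupings of 14 samples, with p-values adjusted over 40 such tests (4 ratios in 10 comparisons). These pool the 7 comparisons of groups with the 3 of NC tissues. The low p-values between tissues lower the adjusted p of the group comparisons. The log2 ratio of the miR-92 family to the miR-17 family was between -0.32 and 0.52 in NC myocardium (median -0.23), between 0.59 and 1.04 in NC amniotic fluid (median 0.96) and between 1.37 and 2.44 in NC serum. The 3 tissues did not overlap. The exact permutation p was 0.000583 for each of the 3 pairs of tissues, the smallest that 7 against 7 can give (adjusted p = 0.00333). The miR-17-92 members held 45.2% ± 5.52 of the members' counts in NC myocardium, 20.9% ± 4.35 in amniotic fluid and 31.8% ± 8.90 in serum. Their log2 ratio to the miR-106b-25 members was lower in amniotic fluid than in myocardium by 1.67 ± 0.19 (SE, exact permutation p = 0.000583, adjusted p = 0.00333), with no overlap. Serum lay between them, lower than myocardium by 0.85 ± 0.25 (exact permutation p = 0.00699, adjusted p = 0.0254). These differences in cluster balance rest on summed counts, in which the abundant members dominate, and the mean of log2 counts gave a difference of -0.37 between amniotic fluid and myocardium (exact permutation p = 0.326) and of 0.39 between amniotic fluid and serum. The log2 ratio of the miR-19 family to the miR-17 family was -2.15 ± 0.26 (SD) in NC myocardium, -4.00 ± 0.91 in amniotic fluid and -3.72 ± 0.31 in serum. It was lower in serum than in myocardium (exact permutation p = 0.000583), but with the mean of the members' log2 counts in place of summed counts serum was higher by 0.78 (exact permutation p = 0.00291). RNA extraction differed between the 3 tissues, and the library kit and sequencer of amniotic fluid differed from those of the others. Tissue and method therefore cannot be told apart.

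Of the 4 ratios, that of the arms of the miR-106b hairpin differed most between myocardium and each fluid, while between amniotic fluid and serum it differed by 0.16 ± 0.86 (SE, exact permutation p = 0.857). In the 7 NC myocardium libraries 36861 counts of miR-106b-5p stood beside 31527 of miR-106b-3p, while NC serum held 25 against 4016 and NC amniotic fluid 13 against 1384. The log2 ratio of the 5p to the 3p arm was between -0.46 and 0.94 in NC myocardium and between -7.87 and -6.48 in NC serum, with no overlap (exact permutation p = 0.000583, adjusted p = 0.00333). In 4 of the 7 NC amniotic fluid libraries miR-106b-5p had a count of 0, so the ratio there depends on the 0.5 added to each count. Myocardium and serum libraries were made with the same kind of library kit. Among 142 hairpins with both arms named and at least 100 counts in the NC samples of myocardium and of serum, the larger arm differed between these tissues for 20 (14.1%). The log2 arm ratio of miR-106b moved by -7.52 between them against a median absolute move of 2.46, and 7 of the 142 hairpins, miR-106b among them, moved at least as far. Against amniotic fluid the larger arm differed for 25 of 149 hairpins (16.8%), and 11 moved at least as far as miR-106b.

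The hairpins of miR-18a, miR-19a, miR-20a, miR-25 and miR-93 had the same larger arm in all 3 tissues, and those of miR-17, miR-19b and miR-92a were not compared. In the NC samples miR-93-5p outnumbered miR-93-3p by 163307 to 450 counts in myocardium, 6128 to 219 in amniotic fluid and 32241 to 473 in serum. For miR-25 the 3p arm was larger, with 261760 counts against 403 in myocardium and 76151 against 294 in serum. miR-18a-5p and miR-18a-3p were closest in serum, at 194 and 145 counts, against 11067 and 632 in myocardium.

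**Figure D2:**
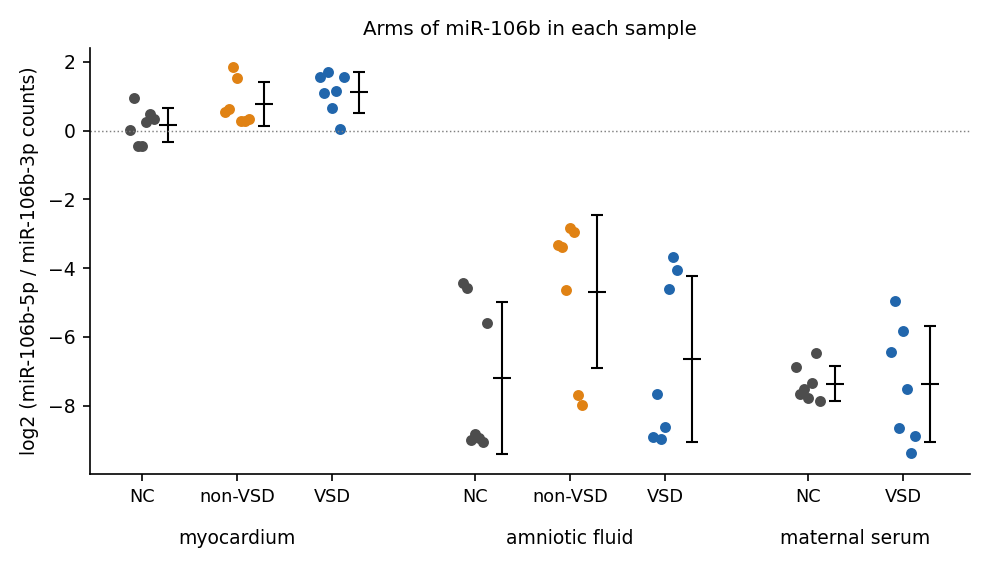
Log2 ratio of miR-106b-5p to miR-106b-3p counts (0.5 added to each) in every sample by group and tissue, with the mean and SD beside the points. All myocardium samples lie between -0.46 and 1.85, and no amniotic fluid or serum sample lies above -2.83.

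In VSD myocardium the miR-92 family members and miR-106b-3p were lower than in NC myocardium, while miR-17-5p and miR-20a-5p were not. Of the 10 members tested, 3 had an unadjusted p under 0.05, all of them lower, where 12.6% of all 469 microRNAs tested were lower and 6.61% higher at that p (19.2% in all). The study's threshold for a DE-microRNA, an unadjusted p under 0.05 with a fold change of 2 or more or of 0.5 or less, was met by 1 member, beside 6.82% of all microRNAs. No member had an adjusted p under 0.05 by edgeR (2 of 469 microRNAs did, 0.426%), while by DESeq2 2 members did, among 46 microRNAs (9.81%). The comparisons of both DMO groups with the NC group share the same 7 NC samples. In bulk samples fewer cells of a type and less RNA per cell cannot be told apart.

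miR-106b-3p, the arm opposite to miR-106b-5p, was between 384 and 1944 CPM in NC samples (median 815) and between 148 and 689 CPM in the VSD group (median 380). All 7 VSD samples lay below the NC median and 5 below every NC sample. The fold change was 0.422 (log2 -1.25 ± 0.37 SE, edgeR, adjusted p = 0.0840). miR-92a-3p was between 1677 and 4155 CPM in NC samples (median 2713) and between 971 and 2615 CPM in the VSD group (median 1565), with 4 VSD samples below every NC sample. Its fold change was 0.584 (log2 -0.78 ± 0.25, adjusted p = 0.0997). miR-25-3p was between 3787 and 12551 CPM in NC samples (median 6414) and between 1765 and 5550 CPM in the VSD group (median 3945), and its fold change was 0.563 (log2 -0.83 ± 0.28, adjusted p = 0.113). All 7 VSD samples of both microRNAs lay below the NC median, and the groups overlapped.

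The members of the miR-17 family did not pass the test in this comparison. The log2 fold change was 0.28 ± 0.22 (SE) for miR-17-5p, 0.22 ± 0.22 for miR-20a-5p, -0.28 ± 0.24 for miR-106b-5p and -0.37 ± 0.21 for miR-93-5p. miR-17-5p was between 1041 and 2659 CPM in NC samples (median 1547) and between 1703 and 2620 CPM in the VSD group (median 1803), so that each VSD sample exceeded the NC median but stayed within the NC range. miR-19b-3p (log2 0.04 ± 0.30), miR-19a-3p (0.40 ± 0.38) and miR-18a-5p (-0.03 ± 0.28) did not pass either. VSD replicate 3 held the highest miR-19b-3p of its group, at 4812 CPM against at most 2186 CPM in the other 6 samples.

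The adjusted p of the 3 lower members depended on NC replicate 2, which had the lowest level of miR-106b-3p, miR-92a-3p, miR-93-5p and miR-25-3p in the NC group. Without it all 3 had an adjusted p under 0.05, with log2 fold changes of -1.43 (miR-106b-3p), -0.92 (miR-92a-3p) and -0.99 (miR-25-3p), but so did 77 of 474 microRNAs (16.2%). miR-93-5p then had a log2 fold change of -0.52 and an unadjusted p under 0.05 (adjusted p = 0.0952). Without the 3 libraries low in muscle microRNAs (NC replicate 2 and VSD replicates 1 and 4) the same 3 members were lower at an unadjusted p under 0.05. At that p stood 24.2% of all microRNAs. The study's threshold was met by 2 members, miR-106b-3p (log2 -1.40) and miR-25-3p (-1.11), among 55 of 472 microRNAs. No member then had an adjusted p under 0.05, and 7 of 472 microRNAs did. The change is relative to the scaling. By library size alone the median of all microRNAs moved from -0.05 to 0.32, miR-92a-3p and miR-25-3p both came to -0.33 and no longer had an unadjusted p under 0.05, and miR-17-5p (0.71), miR-20a-5p (0.65) and miR-19a-3p (0.86) were higher at an unadjusted p under 0.05.

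**Figure D3:**
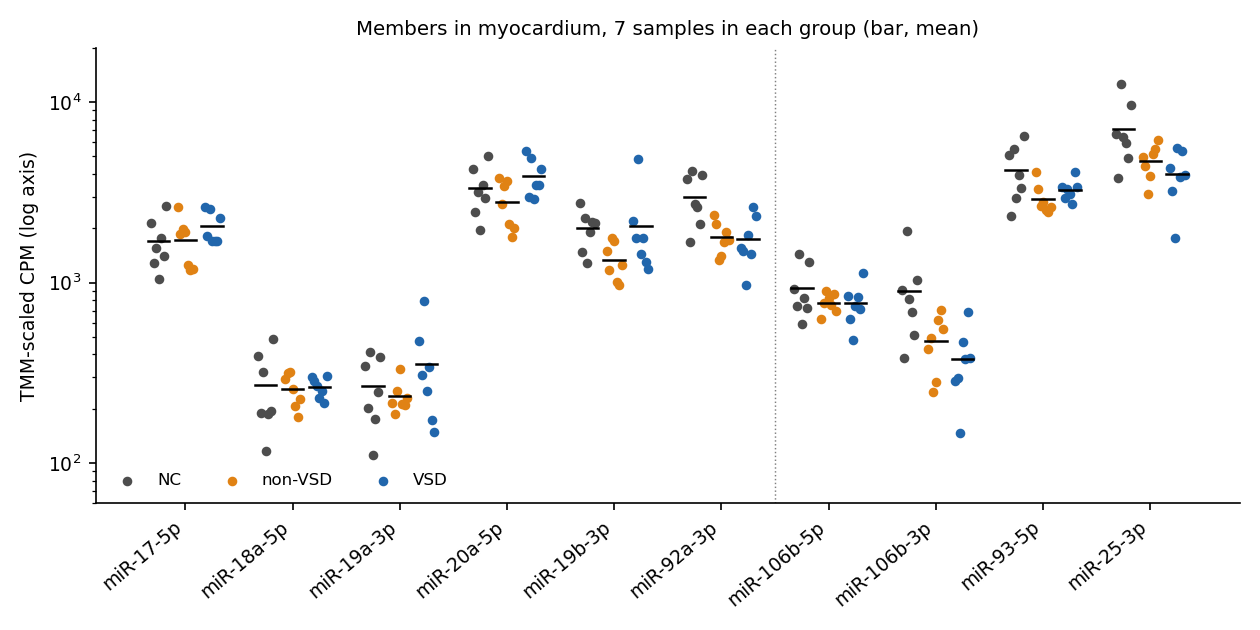
Level of each member in every myocardium sample by group, in TMM-scaled CPM on a log axis, with a bar at the group mean. For miR-92a-3p and miR-106b-3p all 7 non-VSD and all 7 VSD samples lie below the NC median (2713 and 815 CPM), while for miR-17-5p the VSD samples lie within the NC range.

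Within libraries, where scaling plays no part, the balance of the seed families differed in the same samples. In VSD myocardium the log2 ratio of the miR-92 to the miR-17 family was between -2.04 and -0.19 (median -0.81), against -0.32 to 0.52 in the NC group. VSD replicate 3 was lowest, and 6 of the 7 VSD samples lay below every NC sample, replicate 6 only just. The difference was -0.82 ± 0.27 (SE, exact permutation p = 0.00466, adjusted p = 0.0186 over group and tissue comparisons together). An adjustment over the group comparisons alone was not made, so this adjusted p does not show that the difference would pass among them. Without VSD replicate 3 the difference was -0.62, and without the 3 libraries low in muscle microRNAs it was -0.96 (exact permutation p = 0.00216). In shares, the miR-92 family held 30.7% ± 8.88 (SD, n = 7) of the members' counts in VSD myocardium against 42.2% ± 5.79 in the NC group. The log2 ratio of the miR-17-92 members to the miR-106b-25 members was between -0.85 and 0.0093 in the NC group and between -0.24 and 1.33 in the VSD group, higher by 0.58 ± 0.23 (exact permutation p = 0.0169, adjusted p = 0.0520). The ratio of the miR-19 family to the miR-17 family differed by -0.05 ± 0.26 (exact permutation p = 0.854).

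The arms of miR-106b also differed in their ratio between these groups. The log2 ratio of the 5p to the 3p arm was between -0.46 and 0.94 in NC myocardium (median 0.27) and between 0.057 and 1.69 in VSD myocardium (median 1.14). The difference was 0.95 ± 0.29 (exact permutation p = 0.0105, adjusted p = 0.0350, again over group and tissue comparisons together and with the same limit). The groups overlapped, and the 5p arm was the larger in all 7 VSD samples and in 5 of the 7 NC samples. In non-VSD myocardium this ratio was between 0.29 and 1.85 (median 0.55), above the NC group by 0.62 ± 0.31 (exact permutation p = 0.0699). VSD myocardium exceeded non-VSD myocardium by 0.33 ± 0.33 (exact permutation p = 0.323), so the arm ratio was not shown to differ between the DMO groups.

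Red blood cell microRNAs moved with these results. All 4 listed (miR-451-5p, miR-144-3p, miR-144-5p and miR-486) had an unadjusted p under 0.05 and were lower in VSD myocardium, with a median log2 fold change of -2.37. Their summed level was between 2651 and 91133 CPM in the NC group, between 3255 and 33984 CPM in the non-VSD group and between 3435 and 25158 CPM in the VSD group, and none of the 4 was at 0 in any group. Of 4 white blood cell microRNAs, 2 were lower in VSD myocardium, and their summed level was between 426 and 3758 CPM in the NC group and between 278 and 1142 CPM in the VSD group. Their part in the members' differences was not tested.

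In non-VSD myocardium, where the septum was intact, 5 members were lower than in the NC group with an unadjusted p under 0.05, where 8.99% of 456 microRNAs were lower and 8.55% higher (17.5% in all). None met the study's threshold (4.17% of all microRNAs did) and none had an adjusted p under 0.05 by edgeR (0.219%), while by DESeq2 2 members did, miR-92a-3p and miR-19b-3p, among 48 microRNAs (10.5%). miR-92a-3p was between 1342 and 2374 CPM (median 1728) against an NC median of 2713 CPM, with a log2 fold change of -0.70 ± 0.22 (adjusted p = 0.118). miR-106b-3p was between 249 and 709 CPM (median 496), with a log2 fold change of -0.89 ± 0.34 (adjusted p = 0.165). miR-19b-3p was between 973 and 1778 CPM against 1291 to 2759 CPM in the NC group, with a log2 fold change of -0.53 ± 0.20 (adjusted p = 0.165). All 7 non-VSD samples of these 3 microRNAs lay below the NC median, and the groups overlapped. miR-25-3p (log2 -0.55 ± 0.25) and miR-93-5p (-0.48 ± 0.22) were the other members below that p (adjusted p = 0.250 for both). miR-106b-3p lost its unadjusted p under 0.05 without NC replicate 3 (log2 -0.58), which held its highest NC level. miR-25-3p was lost in 6 and miR-93-5p in 9 of the 14 fits that each left out 1 sample, with log2 fold changes down to -0.36 (without NC replicate 3) and -0.38 (without NC replicate 7). By library size alone miR-92a-3p alone still passed. Non-VSD samples had a log2 ratio of the miR-92 family to the miR-17 family between -1.02 and 0.27, which differed from the NC group by -0.29 ± 0.24 (exact permutation p = 0.252). Of the red blood cell microRNAs 3 of 4 were lower here too, with a median log2 fold change of -1.61.

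**Figure D4:**
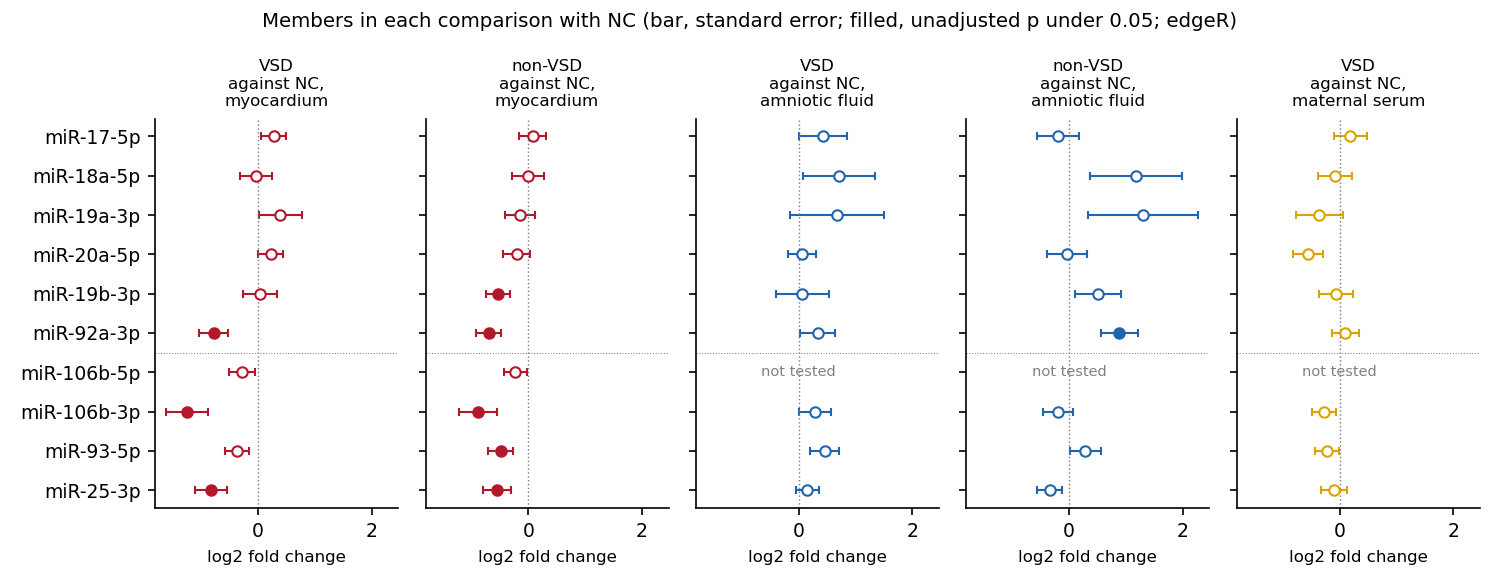
Log2 fold change of each member against the NC group with its standard error in 5 comparisons, filled where the unadjusted p of edgeR was under 0.05. The filled points are 3 in VSD myocardium and 5 in non-VSD myocardium, all below 0, and miR-92a-3p in non-VSD amniotic fluid, at 0.88.

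The VSD and non-VSD groups, which share the exposure, were compared directly. In myocardium 2 members had an unadjusted p under 0.05, both higher in the VSD group, where 8.07% of 483 microRNAs were higher and 3.52% lower (11.6% in all), and none met the study's threshold (5.18%) or had an adjusted p under 0.05, nor did any microRNA by edgeR (0%) or by DESeq2. miR-19b-3p was between 1196 and 4812 CPM in the VSD group (median 1756) and between 973 and 1778 CPM in the non-VSD group (median 1257), with a log2 fold change of 0.62 ± 0.27 (adjusted p = 0.426). miR-20a-5p was between 2889 and 5337 CPM in the VSD group and between 1786 and 3783 CPM in the non-VSD group, with a log2 fold change of 0.48 ± 0.23 (adjusted p = 0.426). The groups overlapped in both. Neither had an unadjusted p under 0.05 without VSD replicate 3 (miR-19b-3p 0.21 and miR-20a-5p 0.37), without non-VSD replicate 5 (0.59 and 0.45), 6 (0.52 and 0.36) or 7 (0.61 and 0.41), or with only these groups in the fit (0.59 and 0.45). Of the 21 fits that each left out 1 sample, miR-20a-5p lost its unadjusted p under 0.05 in 9 and miR-19b-3p in 4. Epithelial microRNAs moved with this comparison, 2 of 8 being higher in the VSD group with a median log2 fold change of 1.61 and a summed level between 1984 and 15250 CPM against 322 to 6580 CPM. Without the 3 libraries low in muscle microRNAs miR-19b-3p kept its unadjusted p under 0.05 (0.66) and miR-20a-5p did not (0.43). miR-92a-3p (-0.04 ± 0.23), miR-106b-3p (-0.33 ± 0.34) and miR-25-3p (-0.24 ± 0.26) did not pass the test. Between these groups the log2 ratio of the miR-92 family to the miR-17 family was lower in the VSD group by 0.53 ± 0.30, which did not pass (exact permutation p = 0.101), so the ratio in VSD myocardium was not shown to differ from that in non-VSD myocardium.

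**Figure D5:**
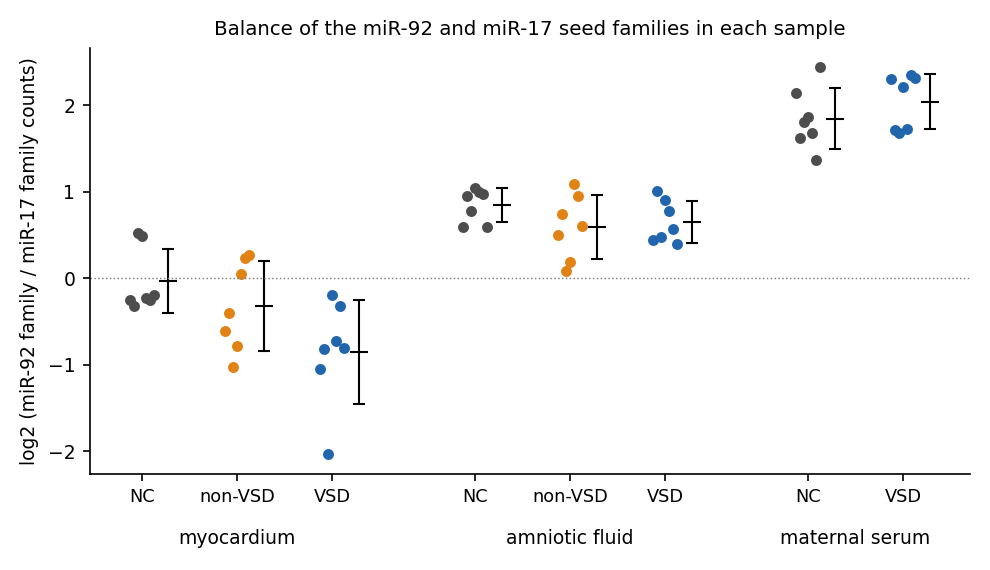
Log2 ratio of the summed counts of the miR-92 family (miR-92a-3p and miR-25-3p) to those of the miR-17 family (miR-17-5p, miR-20a-5p, miR-93-5p and miR-106b-5p) in every sample by group and tissue, with the mean and SD beside the points. NC myocardium lies between -0.32 and 0.52, non-VSD myocardium between -1.02 and 0.27 and VSD myocardium between -2.04 and -0.19. The groups overlap within each of the 3 tissues.

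In amniotic fluid of the VSD group no member of the 9 tested had an unadjusted p under 0.05 against the NC group, where 13.5% of 245 microRNAs did, 5.71% higher and 7.76% lower (6.94% met the study's threshold), and no microRNA had an adjusted p under 0.05 by edgeR (0%) or by DESeq2. miR-106b-5p was under the filter on low counts. All 9 log2 fold changes were above 0, between 0.06 and 0.71, with a median of 0.33 against -0.06 for all microRNAs. Markers of other cells moved in this comparison. Of the red blood cell microRNAs 2 of 4 were higher at an unadjusted p under 0.05, with a median log2 fold change of 2.02 and a summed level between 18134 and 143542 CPM against 15041 to 34832 CPM in the NC group. Of 3 white blood cell microRNAs tested 1 was higher (median 0.52). The only liver microRNA listed was higher at that p too (between 619 and 40732 CPM against 359 to 1630 CPM). This rested on VSD replicates 3 and 4 (8268 and 40732 CPM), and the VSD median of 889 CPM was below the NC median of 967 CPM. Their part in the members' values was not tested. miR-93-5p had the lowest p. It was between 4112 and 8605 CPM in NC samples (median 6300) and between 5485 and 15062 CPM in VSD samples (median 8341), with a log2 fold change of 0.46 ± 0.25 (adjusted p = 0.424).

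Against the NC group 1 of 9 members in non-VSD amniotic fluid had an unadjusted p under 0.05, where 11.2% of 242 microRNAs were higher and 8.26% lower (19.4% in all), and it met neither the fold change of the study's threshold (12.4% of all microRNAs met the threshold) nor an adjusted p under 0.05 by edgeR (4.96%), while by DESeq2 its adjusted p was 0.0426, among 29 microRNAs under 0.05 (12%). This was miR-92a-3p, between 1609 and 4047 CPM among NC samples (median 2331) and between 1699 and 7002 CPM in the non-VSD group (median 4785). Of the 7 non-VSD samples 6 exceeded the NC median and 4 every NC sample, and the log2 fold change was 0.88 ± 0.32 (adjusted p = 0.110). In the non-VSD group its log2 fold change was thus below 0 in myocardium and above 0 in amniotic fluid, neither at an adjusted p under 0.05 by edgeR. The difference between these effects, taken as mean log2 levels (-0.70 in myocardium and 0.74 in amniotic fluid), was -1.44. Its permutation p of 0.00116 was the lowest of 56 such tests (adjusted p = 0.0650). Red blood cell microRNAs moved here as well, all 4 of them higher with an unadjusted p under 0.05 and a summed level between 25426 and 86204 CPM against 15041 to 34832 CPM in the NC group. Their part in the result was not tested. miR-25-3p, with the same seed, had a log2 fold change of -0.34 ± 0.22. The widest estimates were those of the least abundant members, miR-19a-3p (1.30 ± 0.97) and miR-18a-5p (1.18 ± 0.81), which did not pass the test.

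Between the VSD and non-VSD groups of amniotic fluid, miR-25-3p alone of the 10 members had an unadjusted p under 0.05, where 5.49% of 273 microRNAs were higher and 5.13% lower (10.6% in all). No member met the study's threshold (3.3%), and no microRNA had an adjusted p under 0.05 by edgeR (0%), while by DESeq2 6 did (2.2%), none of them a member. miR-25-3p was between 11105 and 18590 CPM in the VSD group (median 14447) and between 7110 and 14952 CPM in the non-VSD group (median 9571). All 7 VSD samples lay above the non-VSD median and 3 above every non-VSD sample, with a log2 fold change of 0.54 ± 0.22 (adjusted p = 0.292). With only these 2 groups in the fit it was 0.47, no longer at an unadjusted p under 0.05. The listed liver microRNA was higher in the VSD group here as well (log2 2.31), again by replicates 3 and 4. Its median was 889 CPM in the VSD group and 968 CPM in the non-VSD group, and its part was not tested. The log2 ratio of the miR-17-92 to the miR-106b-25 members ran from -2.16 to -0.87 in non-VSD samples, from -3.05 to -1.26 in VSD samples and from -2.64 to -1.50 in NC samples. It was lower in the VSD than in the non-VSD group by 0.61 ± 0.27 (exact permutation p = 0.0431, adjusted p = 0.108), with an unadjusted p above 0.05 in 10 of the 14 tests that each left out 1 sample, and by the mean of log2 counts it differed by 0.031. The ratio of the miR-19 to the miR-17 family was lower in the VSD group by 0.82 ± 0.43 (exact permutation p = 0.0350, adjusted p = 0.0932), and without VSD replicate 2 by 0.44. The ratio of the miR-17-92 to the miR-106b-25 members was higher in the non-VSD than in the NC group by 0.56 ± 0.22 (exact permutation p = 0.0262, adjusted p = 0.0749), which did not hold by the mean of log2 counts (-0.044).

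In maternal serum none of the 9 members tested had an unadjusted p under 0.05 between the VSD and NC groups, where 13.7% of 219 microRNAs did, 8.68% higher and 5.02% lower (4.57% met the study's threshold), and no microRNA had an adjusted p under 0.05 by edgeR (0%), while by DESeq2 4 did (1.83%), none of them a member. The log2 fold changes were between -0.56 and 0.19, with a median of -0.10. For the 3 most abundant members they were -0.10 ± 0.23 (SE, miR-25-3p), 0.10 ± 0.24 (miR-92a-3p) and -0.22 ± 0.22 (miR-93-5p). miR-20a-5p had the lowest p, between 173 and 635 CPM in NC samples (median 432) and between 158 and 362 CPM in the VSD group (median 281), where all 7 VSD samples lay below the NC median (log2 -0.56 ± 0.27, adjusted p = 0.356). The family ratios overlapped between the groups. On the log2 scale that of the miR-92 to the miR-17 family was 2.04 ± 0.32 (SD, n = 7) in the VSD group and 1.84 ± 0.35 in the NC group (exact permutation p = 0.305).

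The other arms of the same hairpins and relatives outside both clusters were taken as fixed lists. Of 9 other arms, 8 could be tested in VSD against NC myocardium, and 2 had an unadjusted p under 0.05, where 19.2% of all microRNAs did (6.61% higher). These were miR-92a-1-5p (log2 0.74 ± 0.35, adjusted p = 0.257) and miR-19b-1-5p (1.32 ± 0.50, adjusted p = 0.157), both higher, and miR-19b-1-5p alone met the study's threshold, at 0.898 ± 0.685 CPM (SD) in NC myocardium, under the limit of 1.77 CPM of the smallest library. miR-92a-1-5p was also higher in non-VSD myocardium (0.63 ± 0.26, adjusted p = 0.187), where miR-92a-3p was lower. The level of miR-92a-1-5p in NC myocardium was 5.11 ± 1.48 CPM (SD) against 2995 CPM for miR-92a-3p. None of the 3 arms tested in amniotic fluid and of the 4 in serum passed in any comparison.

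The list of 11 relatives of the clusters also held other arms of their hairpins. Outside both clusters, 4 microRNAs in the tables shared a member's seed (miR-20b-5p, miR-92b-3p, miR-32-5p and miR-363-3p), and all 4 were tested in myocardium. In VSD against NC myocardium 1 of them had an unadjusted p under 0.05, where 19.2% of all microRNAs did. In non-VSD against NC myocardium 1 did (17.5% of all), and in VSD against non-VSD myocardium 2 did (11.6% of all). miR-20b-5p, a miR-17 family member of the miR-106a-363 cluster, was higher in VSD myocardium than in the NC group (log2 0.75 ± 0.28, adjusted p = 0.155) and than in the non-VSD group (0.77 ± 0.25, adjusted p = 0.426), at 13.3 ± 6.23 CPM (SD) in NC myocardium. miR-92b-3p, with the miR-92 seed, was higher in VSD than in non-VSD myocardium (1.48 ± 0.69, adjusted p = 0.426). miR-32-5p, with the same seed, was higher in non-VSD than in NC myocardium (0.71 ± 0.33, adjusted p = 0.264). No relative had an adjusted p under 0.05 in any comparison, and none passed at an unadjusted p under 0.05 in amniotic fluid or serum. In NC amniotic fluid miR-92b-3p reached 530 ± 414 CPM and miR-32-5p 191 ± 162 CPM, below miR-92a-3p and miR-25-3p.

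Likeness over the 21 myocardium samples was described by the SD of the log2 ratio of 2 microRNAs, among 483 microRNAs. The closest partner of miR-17-5p was miR-20a-5p (SD 0.16), followed by miR-181c-5p (0.27) and miR-324-5p. miR-92a-3p and miR-25-3p, which share a seed but lie on different chromosomes, were each other's closest partner (0.28), and miR-25-3p was the closest partner of miR-106b-3p (0.32). miR-19a-3p and miR-19b-3p were each other's closest partner as well (0.38). miR-93-5p varied most like miR-191a-5p (0.17) and miR-103-3p (0.25), and miR-106b-5p like miR-374-5p (0.23), miR-194-5p (0.24) and miR-30d-3p (0.25), none of them a member. miR-18a-5p was closest to miR-17-1-3p (0.27), the other arm of the miR-17 hairpin, before miR-16-5p (0.28) and miR-17-5p (0.29). Of the 30 closest partners of the 10 members, 11 were members. The median SD over all microRNAs was between 0.72 and 1.02 for the 10 members. Over the 21 amniotic fluid samples 8 of 30 closest partners were members, with miR-106b-3p, miR-25-3p and miR-93-5p closest to one another (0.35 to 0.43), and over the 14 serum samples 2 of 27 were. These samples share tissue, library method and, within a group, treatment.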

How the data were processed

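For 56 samples the authors deposited 5 tables with counts of reads assigned to mature microRNAs, on which all results rest. The submitters' processing notes name bcl2fastq 2.19 and DESeq. The aligner, microRNA annotation and genome build are not given in the sources used here. Another 70 columns of normalized values and the authors' own group comparisons (fold changes, p-values) were not used. The NC samples stand in both tables of a tissue with equal counts.

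Tests used edgeR 4.0.16 under R 4.3.3 (filterByExpr, minimum count 10, minimum total 15; TMM; quasi-likelihood test; Benjamini-Hochberg adjustment over all microRNAs tested), with 7 samples of a DMO group against 7 NC samples, and VSD against non-VSD in a fit of 3 groups. SE is the log2 fold change divided by the root of F. CPM are TMM-scaled over all samples of a tissue. The fit was tested on simulated data. Python 3.11.15 and matplotlib 3.10.9 served for the rest. Alternatives were DESeq2 1.42.0, library size scaling, dropping the filter, a filter of 10 counts in all samples, fits with other groups, blocking on replicate number, each sample left out, and, chosen after seeing the data, NC replicate 2 and VSD replicate 3 of myocardium left out, and its 3 libraries low in muscle microRNAs left out. Ratios added 0.5 to summed counts, with the mean of log2 counts as the alternative.

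The members, lists, ratios and tests were chosen with earlier results of these data known. Members with an unadjusted p under 0.05 in a comparison, or else the one with the lowest p, are named with their values, and other microRNAs by the lists. The replicate numbers were not taken as pairs, since in none of the 7 comparisons were all pairs' correlations over 0.1. This cannot exclude pairing. In serum and in VSD against non-VSD myocardium 5 of 7 pairs were over 0.1.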

Additional observations from a re-analysis of the deposited data

Results flagged for a closer look

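A value was taken as far from its group when its gap to the nearest of the other 6 samples exceeded 0.568 of the group's range. This was so in 6 of 112 sets of 7 values, and chance gives about 1 set in 20. In myocardium these were miR-106b-3p in NC replicate 3 (1944 CPM, others 384 to 1035) and miR-19b-3p in VSD replicate 3 (4812 CPM, others 1196 to 2186), the smallest myocardium library. In amniotic fluid they were miR-19b-3p in NC replicate 4 (1147 CPM, others 251 to 614), miR-18a-5p in VSD replicate 7 (502 CPM, others 111 to 280), and the log2 ratio of the miR-19 to the miR-17 family in VSD replicate 2 (-6.65, others -4.44 to -3.31). In serum miR-17-5p stood out in NC replicate 5 (599 CPM, others 228 to 355). Differences between tissues in the effect of a group were tested by 100000 permutations within each tissue for 10 members and 4 ratios. Of 56 tests 10 had an unadjusted p under 0.05 and none an adjusted p under 0.05.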

How the results depend on the processing

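In VSD against NC myocardium, where no member had an adjusted p under 0.05 by edgeR, 2 did by DESeq2 (9.81% of all microRNAs), 1 with all 3 groups in the fit (5.18%) and 3 without NC replicate 2 and VSD replicate 3 (11.8%, chosen after seeing the data), and leaving out 1 sample gave 0 to 3. With library size scaling 0 members met the study's threshold, where 45 of 469 microRNAs did. Without the 3 libraries low in muscle microRNAs (chosen after seeing the data) 2 members did, among 55 of 472 microRNAs. In non-VSD against NC myocardium DESeq2 gave 2 members at an adjusted p under 0.05 (10.5% of all microRNAs), and leaving out 1 sample gave 0 to 1 by either threshold. In non-VSD against NC amniotic fluid DESeq2 gave 1 (12%), the filter of 10 counts in all samples gave 1 by either threshold, and leaving out 1 sample gave 0 to 1. The causes were not tested.

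With the mean of log2 counts, the ratio of the miR-19 to the miR-17 family differed by 0.12 in VSD against NC myocardium, -0.20 in VSD against non-VSD amniotic fluid, 0.78 in NC serum against myocardium and -0.083 in NC amniotic fluid against myocardium. The ratio of miR-17-92 to miR-106b-25 members differed by -0.044 in non-VSD against NC and 0.031 in VSD against non-VSD amniotic fluid, by -0.37 in NC amniotic fluid against myocardium and by 0.39 against serum.

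Whether the replicate numbers pair the samples is not known. With the replicate number as a block, the miR-92 to miR-17 ratio in VSD against NC amniotic fluid kept its -0.19 with a sign-flip p = 0.0313 (exact), and the miR-17-92 to miR-106b-25 ratio kept 0.56 in non-VSD against NC amniotic fluid (exact p = 0.125) and -0.81 in NC amniotic fluid against serum (exact p = 0.0625). In the block fit 3 members were still lower in VSD myocardium at an unadjusted p under 0.05, while in non-VSD myocardium miR-106b-3p, miR-25-3p and miR-93-5p were not.

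Leaving out 1 sample moved the ratio differences as follows. The miR-92 to miR-17 ratio ranged from -0.25 to -0.15 (VSD against NC) and -0.34 to -0.17 (non-VSD against NC) in amniotic fluid, and for VSD against non-VSD from -0.64 to -0.33 in myocardium and -0.025 to 0.14 in amniotic fluid. The miR-19 to miR-17 ratio ranged from -0.25 to 0.088 (VSD against NC), -0.31 to -0.18 (non-VSD against NC) and -0.015 to 0.32 (VSD against non-VSD) in myocardium, and from -0.56 to 0.018, 0.26 to 0.73 and -0.99 to -0.44 in amniotic fluid in the same order. The cluster ratio ranged from -0.18 to 0.12 (VSD against NC), 0.44 to 0.69 (non-VSD against NC) and -0.74 to -0.44 (VSD against non-VSD) in amniotic fluid, and from 0.28 to 0.55 in VSD against non-VSD myocardium. The miR-106b arm ratio ranged from -0.42 to 0.32 in serum, 0.44 to 0.75 in non-VSD against NC myocardium, 2.21 to 3.07 in non-VSD against NC amniotic fluid and -0.30 to 0.46 in NC amniotic fluid against serum. Depth limited miR-106b-5p in amniotic fluid and serum.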
